A study of Mus musculus with 6 samples.

Results

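The 10 genes described here encode the metallothioneins Mt1 and Mt2, the transcription factor NRF2 (gene Nfe2l2), its inhibitor Keap1 and 6 enzymes whose genes NRF2 is known to control, namely Hmox1, Nqo1, Gclc, Gclm, Srxn1 and Txnrd1. They were taken by symbol from the 24421 genes of the count files, and all 10 were present and were among the 14180 genes that passed the expression filter and were tested. The gastrocnemius/plantaris (GP) muscle of male mice, labelled with a B6C3F1 strain background, was used for bulk RNA-Seq. The floxed allele was made in B6C3F1 zygotes, and the founders were bred to C57BL/6N mice and their offspring to HSA-CreERT2 carriers. There were 3 mice labelled Ctrl (Net39 fl/fl, no Cre) and 3 labelled cKO (HSACreERT2;Net39 fl/fl). Both groups carried the floxed Net39 allele and received tamoxifen, and all mice were 5 months old, 3 months after tamoxifen. The HSA promoter drives Cre in myofibers and not in satellite cells, so other cells of a whole muscle would keep Net39. The comparison asks whether oxidative stress genes differ between the 2 labelled groups.

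The targeted gene went against the labels. Net39 (listed as Ppapdc3) had 217 to 321 counts in the Ctrl-labelled libraries and 4340 to 6080 counts in the cKO-labelled ones. Groups are therefore called Ctrl-labelled (low Net39) and cKO-labelled (high Net39), and a log2 fold change above 0 means a higher level with the cKO label. Libraries held 33860001 to 38201728 counts in the first group and 39191239 to 48839910 counts in the second. Levels are CPM, the share of a library's counts scaled by edgeR's TMM factors. Fiber markers were abundant, with summed CPM of Acta1, Ckm, Des, Myh4, Myh1, Tnnt3, Mb and Pvalb from 87108 to 180364. Of 11 slow-fiber markers, 6 were lower in the cKO-labelled libraries and 5, Myh7 among them, did not pass, with a summed level of 610 to 4198 CPM against 9460 to 15998 CPM in the Ctrl-labelled ones. Of 10 listed fast-fiber markers, type IIb Myh4 among them, all were higher in the cKO-labelled libraries. Their summed level was 151346 to 196464 CPM in the cKO-labelled libraries and 56306 to 95568 CPM in the Ctrl-labelled ones. The myosin gene Myh1, not on that list, was lower in the cKO-labelled libraries (log2 fold change -0.93, standard error 0.25, edgeR's adjusted p = 0.0341). The RNA of fiber type markers thus moved with the labelled groups, and its part in the results below was not tested. In RNA of a whole muscle, fewer cells of a type and less RNA per cell cannot be told apart.

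NRF2 is a transcription factor that, with small MAF partners, binds antioxidant response elements and switches on genes for glutathione and thioredoxin metabolism and for detoxification. In unstressed cells KEAP1 holds NRF2 and presents it to the ubiquitin ligase built on CUL3 and RBX1, which leads to its degradation, so much of this control acts on the protein and is not read by transcript counts. Metallothioneins are small, cysteine-rich proteins that bind zinc and copper. Their genes are known to respond to metals through the factor MTF1 at metal response elements, and to glucocorticoids and oxidants.

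With edgeR's quasi-likelihood test and an adjusted p threshold of 0.05, 1 of the 10 was called. It was Keap1, higher in the cKO-labelled libraries. Over all genes tested, 24.4% passed, 12.6% with higher values in the cKO-labelled libraries and 11.8% with higher values in the Ctrl-labelled ones. With a fold change over 2 in addition, 0 of the 10 genes and 6.05% of all genes passed. At an unadjusted p under 0.05 there were 5 of the 10 (Mt2, Gclm, Srxn1, Txnrd1 and Keap1), beside 38.8% of all genes. DESeq2 called 2 of the 10 (Txnrd1 and Keap1) and 24.9% of all genes it tested. The 3 values of each group did not overlap in 3 of the 10 genes (Keap1, Txnrd1 and Srxn1), against 43.9% of all genes. Estimates were above 0 for 4 genes and below 0 for 6, with a median log2 fold change of -0.095 beside -0.015 over all genes tested.

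**Figure D1:**
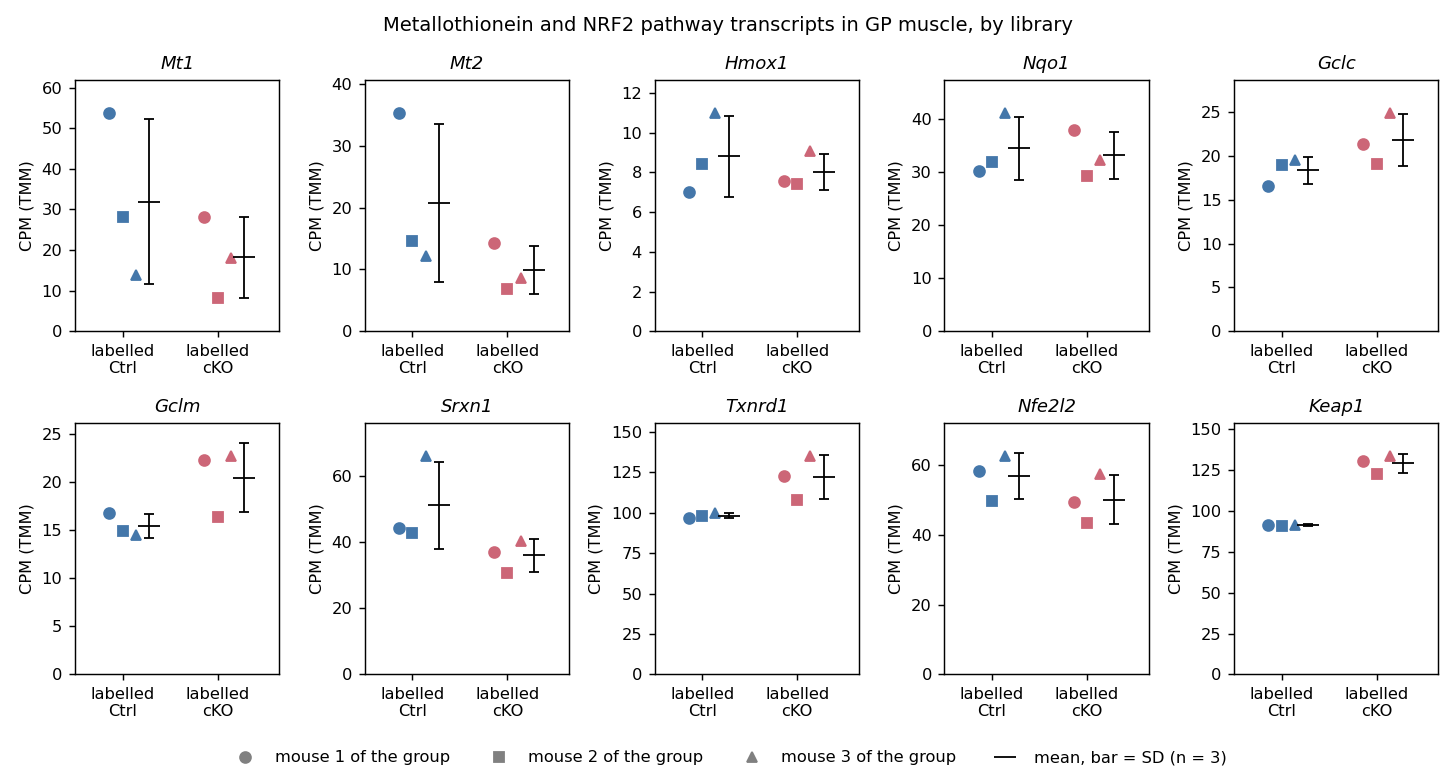
CPM (TMM-scaled) of the 10 genes in each of the 6 libraries; each panel has an axis from 0, symbols are mice and bars are mean ± SD (n = 3). Keap1, Txnrd1 and Srxn1 show no overlap between the labelled groups, whereas Mt1 and Mt2 are spread 2.06-fold to 3.90-fold within a group.

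Per kilobase of the principal transcript, the levels of the Ctrl-labelled libraries ran from Mt1 (58.2 ± 37.0 CPM per kb, SD, n = 3) and Mt2 (40.5 ± 25.0) through Txnrd1 (27.8 ± 0.441), Keap1 (25.3 ± 0.116), Nfe2l2 (23.0 ± 2.67), Nqo1 (22.2 ± 3.79) and Srxn1 (18.1 ± 4.63) to Hmox1 (5.62 ± 1.30), Gclc (5.38 ± 0.455) and Gclm (2.76 ± 0.223). The SDs of Mt1 and Mt2 covered the distance from each to Txnrd1, so their place at the head of this order is within their spread. Keap1, Nfe2l2, Nqo1 and Srxn1 each lay within 1 SD of the next, as did Hmox1 and Gclc. In the cKO-labelled libraries the genes at the head were Keap1 (35.7 ± 1.6 CPM per kb), Txnrd1 (34.5 ± 3.87) and Mt1 (33.1 ± 18.2), which were also within their spread. The lengths are those of GENCODE M21, which may not be the annotation used for counting.

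Keap1, the adaptor that captures NRF2 for degradation, is annotated in GRCm38 (mm10) at 21229730 to 21239361 of chromosome 9, on the minus strand. In order of mouse number, its level was 91.6, 90.8 and 91.5 CPM in the Ctrl-labelled libraries and 131, 122 and 134 CPM in the cKO-labelled ones, and values below keep this order. The Ctrl-labelled values were nearly equal and each value labelled cKO was above them. The log2 fold change was 0.50 (standard error 0.07, 95% interval 0.33 to 0.66, edgeR's adjusted p = 0.00498), which is 1.41-fold. An exact permutation test, two-sided, gave p = 0.1, the smallest that 3 against 3 allows. The spread of log2 CPM within groups was lower than that of Keap1 in 3.15% of all genes tested. Keap1 was called under each of the 13 other settings tried, but the size depended on how libraries were scaled. When libraries were scaled by total counts instead, its log2 fold change was 0.24 (adjusted p = 0.0378), while the median over all genes tested moved from -0.015 to -0.27. Relative to that median, the change of Keap1 was 0.51 with both scalings. An antisense gene shares 510 bases (10.9%) of the Keap1 exons in GENCODE M21, and whether strand was used in counting is not given in the sources used here.

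Nfe2l2, which encodes NRF2 itself, lies on the minus strand of chromosome 2 from 75675513 to 75704641. It had 58.4, 49.7 and 62.7 CPM in the Ctrl-labelled libraries and 49.4, 43.4 and 57.5 CPM in the cKO-labelled ones. The groups overlapped, and the log2 fold change of -0.18 did not pass (standard error 0.13, 95% interval -0.49 to 0.12, edgeR's adjusted p = 0.328). With total counts it passed (log2 fold change -0.44, adjusted p = 0.0288). A ratio of counts within a library does not depend on the scaling. There were 1.57, 1.83 and 1.46 Keap1 counts per Nfe2l2 count in the Ctrl-labelled libraries and 2.65, 2.82 and 2.33 in the cKO-labelled ones. They did not overlap, differed by 0.68 on the log2 scale and gave p = 0.1, the smallest possible, in a two-sided exact permutation test.

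The other subunits of the ligase were on the list of NRF2 partners and regulators. Cul3, the scaffold to which KEAP1 binds, had 178, 193 and 217 CPM in the Ctrl-labelled libraries and 351, 319 and 348 CPM in the cKO-labelled ones. Its log2 fold change of 0.79 (standard error 0.10, edgeR's adjusted p = 0.00368) is 1.73-fold, and it was called under each of the 13 other settings. Rbx1, the RING subunit that recruits the ubiquitin-charged enzyme, had 64.9, 71.1 and 69.7 CPM against 85.1, 83.2 and 85.9 CPM. Its log2 fold change was 0.30 (standard error 0.07, edgeR's adjusted p = 0.0207), a call that held under 7 of the 13 other settings. Among those in which it was lost were total counts (0.051, adjusted p = 0.624) and the fits without Ctrl 1, Ctrl 2, cKO 1 or cKO 3. In all 3 subunit genes the cKO-labelled values were above the Ctrl-labelled ones. CUL3 and RBX1 also serve many other adaptors.

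**Figure D2:**
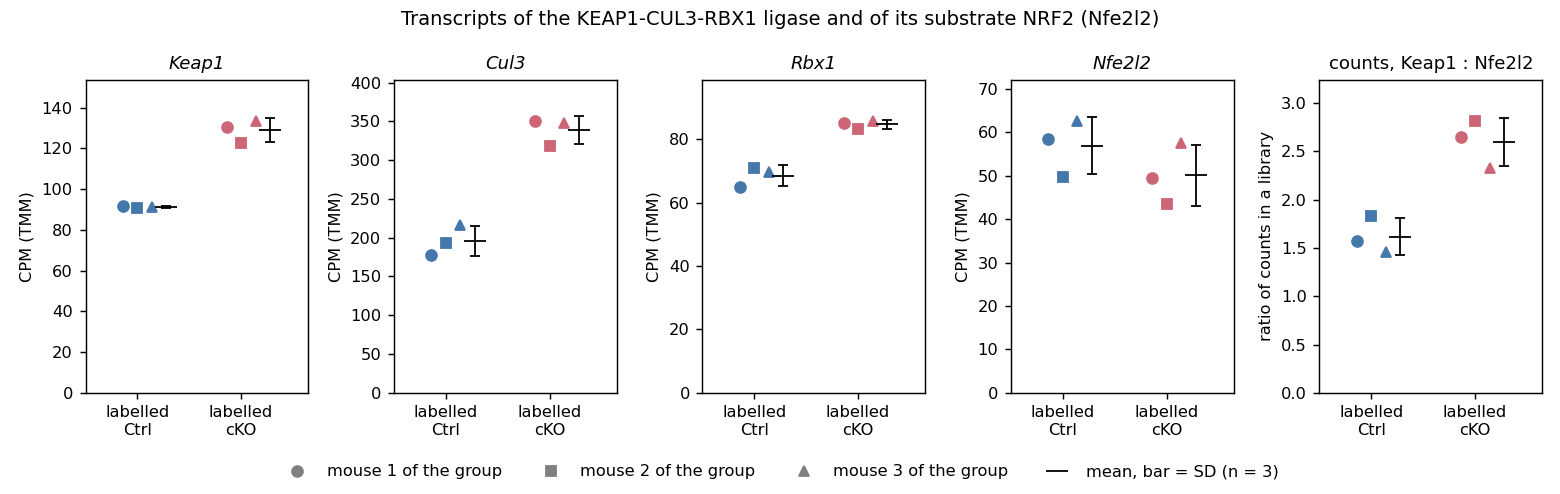
CPM (TMM-scaled) of Keap1, Cul3, Rbx1 and Nfe2l2 and, at the right, Keap1 counts per Nfe2l2 count, in the 6 libraries; bars are mean ± SD (n = 3). The groups do not overlap for the 3 ligase genes or the ratio (1.46 to 1.83 Ctrl-labelled, 2.33 to 2.82 cKO-labelled) and overlap for Nfe2l2; with total counts the log2 fold change of Rbx1 falls to 0.051.

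Of the NRF2 partners and regulators, 16 were tested (Cul3 and Rbx1 included), of which 3 were higher in the cKO-labelled libraries, 3 were higher in the Ctrl-labelled ones and 10 did not pass. Besides Cul3 and Rbx1, the first direction held Park7, whose product DJ-1 is a redox-sensitive protein that stabilizes NRF2 (log2 fold change 0.46, standard error 0.13, adjusted p = 0.037 from edgeR). Higher in the Ctrl-labelled libraries were Mafk, a small MAF partner (-0.50, standard error 0.12, adjusted p = 0.0239), Sesn1, a sestrin and p53 target (-0.70, standard error 0.19, adjusted p = 0.0355), and Nfe2l1, the NRF2 relative that controls proteasome genes (-0.34, standard error 0.10, adjusted p = 0.0422). The median of the list was -0.051, and calls made up 37.5% of it, beside 24.4% of all genes tested. Sqstm1 (0.08, standard error 0.11), which encodes the KEAP1-binding autophagy receptor p62, and Bach1 (0.44, standard error 0.14, adjusted p = 0.0561), a repressor at antioxidant response elements, did not pass. Bach1 passed in 4 of the 13 other settings, with DESeq2 (adjusted p = 0.0241) and without Ctrl 3 or cKO 2 among them. Park7, Mafk, Sesn1 and Nfe2l1 were called in 7 or 8 of the 13 other settings, and each was lost without Ctrl 1, cKO 1 or cKO 3. With total counts Park7 was lost (0.20, adjusted p = 0.172), Mafk (-0.75), Sesn1 (-0.96) and Nfe2l1 (-0.59) were called, and Sqstm1 was at -0.17.

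Gclc and Gclm encode the catalytic and the modifier subunit of glutamate-cysteine ligase, the rate-limiting enzyme of glutathione synthesis. Gclc (chromosome 9, 77754535 to 77794485, plus strand) had 16.7, 19.0 and 19.6 CPM in the Ctrl-labelled libraries and 21.4, 19.2 and 25.0 CPM in the cKO-labelled ones. Gclm (chromosome 3, 122245557 to 122270732, plus strand) had 16.8, 15.0 and 14.5 CPM against 22.4, 16.3 and 22.7 CPM. In both genes cKO 2 lay within the range of the Ctrl-labelled ones. The log2 fold changes were 0.25 for Gclc (standard error 0.12, 95% interval -0.034 to 0.53, edgeR's adjusted p = 0.173) and 0.41 for Gclm (standard error 0.14, 95% interval 0.074 to 0.74, edgeR's adjusted p = 0.0772). Gclm passed without cKO 2 (log2 fold change 0.53, adjusted p = 0.016). With total counts Gclc was at -0.0092 and Gclm at 0.14. The ratio of Gclc to Gclm counts overlapped between the groups (1.20 ± 0.191 Ctrl-labelled, 1.08 ± 0.109 cKO-labelled, SD, n = 3; exact two-sided permutation test, p = 0.4).

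Txnrd1 and Srxn1, both of the thioredoxin and peroxiredoxin system, had estimates of opposite sign. Txnrd1, the cytosolic thioredoxin reductase (chromosome 10, 82833951 to 82897712, plus strand), had 96.7, 98.2 and 99.8 CPM in the Ctrl-labelled libraries and 122, 108 and 135 CPM in the cKO-labelled ones. Srxn1, the sulfiredoxin that repairs over-oxidized peroxiredoxins (chromosome 2, 152105516 to 152111376, plus strand), had 44.3, 42.6 and 66.0 CPM against 36.9, 30.6 and 40.3 CPM. Neither gene overlapped between the groups (p = 0.1 for each in a two-sided exact permutation test, the smallest possible). The log2 fold change of Txnrd1 was 0.31 (standard error 0.10, 95% interval 0.087 to 0.53) and just missed the threshold with edgeR's adjusted p of 0.0528. That of Srxn1 was -0.50 (standard error 0.19, 95% interval -0.94 to -0.066, edgeR's adjusted p = 0.0909). Within a library, 2.18, 2.31 and 1.51 Txnrd1 counts fell on 1 Srxn1 count in the Ctrl-labelled ones and 3.32, 3.53 and 3.35 in the cKO-labelled ones. The ratios differed by 0.79 on the log2 scale, and their lack of overlap follows from that of each gene and is given as a description. Txnrd1 passed with DESeq2 (adjusted p = 0.0275), with the robust fit and without cKO 2 (0.38, adjusted p = 0.0219). With total counts the log2 fold change of Txnrd1 was 0.052 and its groups overlapped. Srxn1 passed with total counts (-0.76, adjusted p = 0.0162), and without Ctrl 3 its log2 fold change was -0.27 (adjusted p = 0.165).

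The start regions of members were read from RefSeq promoters of GRCm38.p6, each from 250 bases before to 50 bases after a start, which held 8 of the 10 genes and 10 starts (Hmox1 and Gclc were not matched). Searched on both strands were the core of the antioxidant response element, TGACNNNGC, and the cores of the metal response element, TGCACNC and TGCGCNC. The first occurred in 12.4% of the 32851 promoters of the table and in at least 1 start of 5 of the 8 genes (Gclm, Mt2, Nfe2l2, Srxn1 and Txnrd1). The share is per promoter and the count per gene. Txnrd1 had several starts, of which only the region beginning at 82858956 matched. The start regions of Gclm and Srxn1, NRF2 targets whose estimates had opposite signs, are shown with the matched letters in capitals. Gclm is at chr3:122245307-122245606 on the plus strand and Srxn1 at chr2:152105274-152105573 on the plus strand. The runs hold 1 match of the first core each, and 3 (Gclm) and 1 (Srxn1) of the metal response cores. In Gclm the first capital run joins a match of each kind.
Gclm: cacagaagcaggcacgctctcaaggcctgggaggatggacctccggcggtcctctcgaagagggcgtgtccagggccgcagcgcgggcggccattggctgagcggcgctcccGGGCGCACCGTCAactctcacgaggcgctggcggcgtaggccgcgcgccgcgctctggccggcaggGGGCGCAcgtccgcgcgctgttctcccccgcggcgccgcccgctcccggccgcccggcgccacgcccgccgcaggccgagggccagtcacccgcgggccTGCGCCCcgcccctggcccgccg
Srxn1: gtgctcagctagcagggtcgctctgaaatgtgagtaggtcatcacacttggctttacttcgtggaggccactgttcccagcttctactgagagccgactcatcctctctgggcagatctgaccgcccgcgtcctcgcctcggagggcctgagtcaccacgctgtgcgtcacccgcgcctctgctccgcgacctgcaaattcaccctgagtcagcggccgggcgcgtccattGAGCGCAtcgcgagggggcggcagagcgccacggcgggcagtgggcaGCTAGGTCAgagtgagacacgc
The start region of Keap1 (chr9:21239283-21239582, minus strand), printed as the called gene, held no match of either core.
Keap1: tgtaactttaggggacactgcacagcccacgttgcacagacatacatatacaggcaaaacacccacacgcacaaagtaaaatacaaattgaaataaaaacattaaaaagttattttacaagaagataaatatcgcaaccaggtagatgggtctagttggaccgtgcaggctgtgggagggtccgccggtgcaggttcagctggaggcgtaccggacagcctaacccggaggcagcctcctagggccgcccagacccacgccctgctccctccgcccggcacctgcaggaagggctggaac

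Nqo1 encodes a quinone reductase and Hmox1 the inducible heme oxygenase, and both are widely used as reporters of NRF2 activity. Nqo1 (chromosome 8, 107388225 to 107403206, minus strand) had 30.2, 31.9 and 41.2 CPM in the Ctrl-labelled libraries and 37.9, 29.3 and 32.2 CPM in the cKO-labelled ones. Hmox1 (chromosome 8, 75093621 to 75100589, plus strand) had 7.00, 8.42 and 11 CPM against 7.59, 7.40 and 9.07 CPM. The groups overlapped in both genes. The log2 fold changes were -0.056 for Nqo1 (standard error 0.14, 95% interval -0.40 to 0.28, edgeR's adjusted p = 0.807) and -0.13 for Hmox1 (standard error 0.18, 95% interval -0.56 to 0.29, edgeR's adjusted p = 0.619). A difference of 2-fold in either direction lay outside both intervals. Hmox1 is also expressed by macrophages, and 10 of 13 macrophage and leukocyte markers were higher in the Ctrl-labelled libraries (0 in the cKO-labelled ones), with summed levels of 250 to 271 CPM against 122 to 157 CPM. The part of these cells in the Hmox1 counts was not tested. Among red blood cell markers, Alas2 had 3.97 to 8.76 CPM, and Hba-a1, Hba-a2, Hbb-bs and Hbb-bt, which form near-identical copies, were listed at 0 in all libraries.

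The metallothionein genes Mt2 (94172664 to 94173568) and Mt1 (94179082 to 94180327) lie 5513 bases apart on the plus strand of chromosome 8. Mt1 had 53.9, 28.1 and 13.8 CPM in the Ctrl-labelled libraries and 28.2, 8.26 and 18.1 CPM in the cKO-labelled ones. Mt2 had 35.4, 14.7 and 12.1 CPM against 14.2, 6.91 and 8.54 CPM. Ctrl 1 was highest and cKO 2 lowest for both genes, and the groups overlapped. The highest library had 6.52 times the level of the lowest for Mt1 and 5.12 times for Mt2, whereas in the other 8 genes this ratio was at most 2.16. The spread within groups was above that of 98.5% (Mt1) and 96.0% (Mt2) of all genes tested. The log2 fold changes were -0.81 for Mt1 (standard error 0.56, 95% interval -2.12 to 0.49, edgeR's adjusted p = 0.32) and -1.07 for Mt2 (standard error 0.45, 95% interval -2.11 to -0.024, edgeR's adjusted p = 0.122). Differences of more than 2-fold toward the Ctrl-labelled libraries lay inside both intervals. That of Mt1 also held 0, while that of Mt2 ended just below 0 (unadjusted p = 0.046). Without Ctrl 1 the log2 fold changes were -0.21 and -0.44, and Mt2 passed with total counts (-1.35, adjusted p = 0.0489). Counts of Mt1 per Mt2 count were 1.52, 1.92 and 1.14 in the Ctrl-labelled libraries and 1.98, 1.20 and 2.12 in the cKO-labelled ones and overlapped (exact two-sided permutation test, p = 0.5). An antisense gene covers 432 bases (73.5%) of the Mt2 exons in GENCODE M21, and the paralogs resemble each other in their coding sequence.

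The start regions of Mt1 (chr8:94178839-94179138) and Mt2 (chr8:94172368-94172667), both on the plus strand, are shown because the same libraries were highest and lowest for both genes. The metal response cores occurred 3 times in that of Mt1 and 4 times in that of Mt2, and that of Mt2 also held 1 antioxidant response core. Of all promoters, 25.7% held at least 1 metal response core and 1.97% held 3 or more. Capitals mark the matches.
Mt1: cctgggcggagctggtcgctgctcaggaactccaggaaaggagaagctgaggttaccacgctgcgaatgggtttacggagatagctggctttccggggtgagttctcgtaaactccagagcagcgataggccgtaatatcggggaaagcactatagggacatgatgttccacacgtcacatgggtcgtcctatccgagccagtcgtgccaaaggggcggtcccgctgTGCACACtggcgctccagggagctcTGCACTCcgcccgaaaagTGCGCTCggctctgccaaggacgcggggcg
Mt2: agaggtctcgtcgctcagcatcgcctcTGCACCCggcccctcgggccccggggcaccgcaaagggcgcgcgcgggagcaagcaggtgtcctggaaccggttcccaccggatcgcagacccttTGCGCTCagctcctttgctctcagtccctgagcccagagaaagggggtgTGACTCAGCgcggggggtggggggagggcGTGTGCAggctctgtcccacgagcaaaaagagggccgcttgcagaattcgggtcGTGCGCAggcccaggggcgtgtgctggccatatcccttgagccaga

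The genes whose log2 CPM, centered on its mean, lay closest to that of Mt1 over the 6 libraries were Fam107a (root mean square difference 0.28), Glul (0.29) and 8430408G22Rik (0.30), among 12353 genes with a mean of at least 1 CPM, whose median difference was 0.89. Mt2 came in place 8 (0.35). Glul, which encodes glutamine synthetase, had 836, 688 and 331 CPM in the Ctrl-labelled libraries and 832, 219 and 477 CPM in the cKO-labelled ones. As for Mt1, Ctrl 3 was the lowest of its group and cKO 2 the lowest of all. For Hmox1, the closest were Homer3 (0.060), Gm572 (0.083) and Slc35d1 (0.085), with a median difference of 0.30. These are descriptions over 6 libraries of 2 groups that share their depth and scaling.

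**Figure D3:**
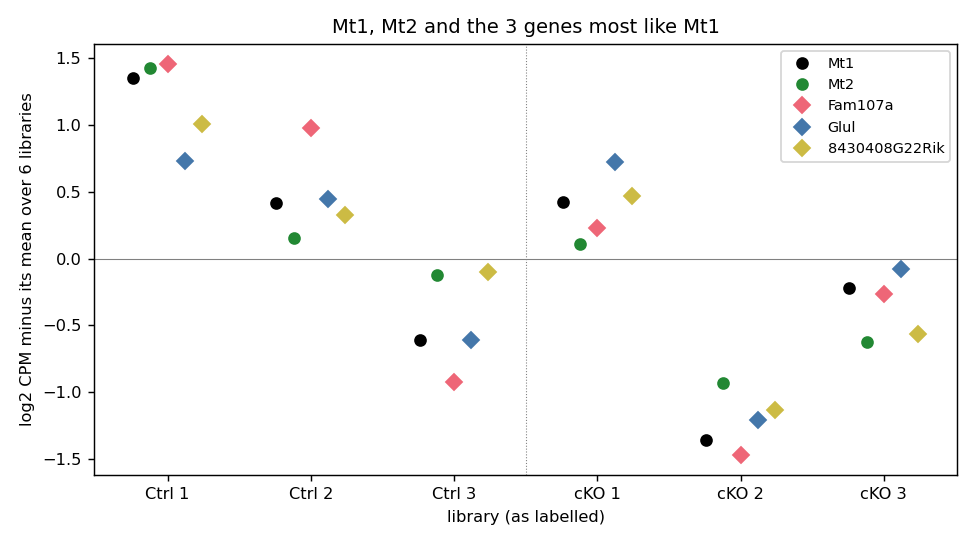
Log2 CPM minus its mean over the 6 libraries, for Mt1, Mt2 and the genes most like Mt1 (Fam107a, Glul and 8430408G22Rik). In each of the 5 genes Ctrl 1 is the highest and cKO 2 the lowest.

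A list of 14 glucocorticoid response genes, which includes Glul, had a median log2 fold change of -0.0015. Of these, 1 was higher in the cKO-labelled libraries (Sgk1, a kinase, 0.71, standard error 0.13, edgeR's adjusted p = 0.00926) and 0 in the Ctrl-labelled ones. Fkbp5 (0.52, standard error 0.74) and Tsc22d3 (0.53, standard error 0.30), 2 common reporters of glucocorticoid exposure, did not pass, and Fkbp5 was at -0.53 without cKO 1. Among 13 tested genes of metallothioneins and zinc handling, 1 was higher in the cKO-labelled libraries and 2 in the Ctrl-labelled ones, with a median of -0.02. The former was Slc30a9, a zinc transporter (0.35, standard error 0.07, adjusted p = 0.0128 from edgeR). The latter were the zinc importer Slc39a14 (-0.43, standard error 0.09, adjusted p = 0.0177) and the zinc exporter Slc30a1 (-0.62, standard error 0.16, adjusted p = 0.0321), itself a known MTF1 target. Slc30a1 was called in 7 and Slc39a14 in 8 of the 13 other settings, and Slc30a9 in 10, being lost among others with total counts (0.10, adjusted p = 0.386) and without cKO 3 (adjusted p = 0.067). Mtf1 did not pass (-0.15, standard error 0.06, adjusted p = 0.118; 0.0104 with total counts), nor did Mt3 (-0.68, standard error 0.33, adjusted p = 0.173), and Mt4 had at most 1 count per library.

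**Figure D4:**
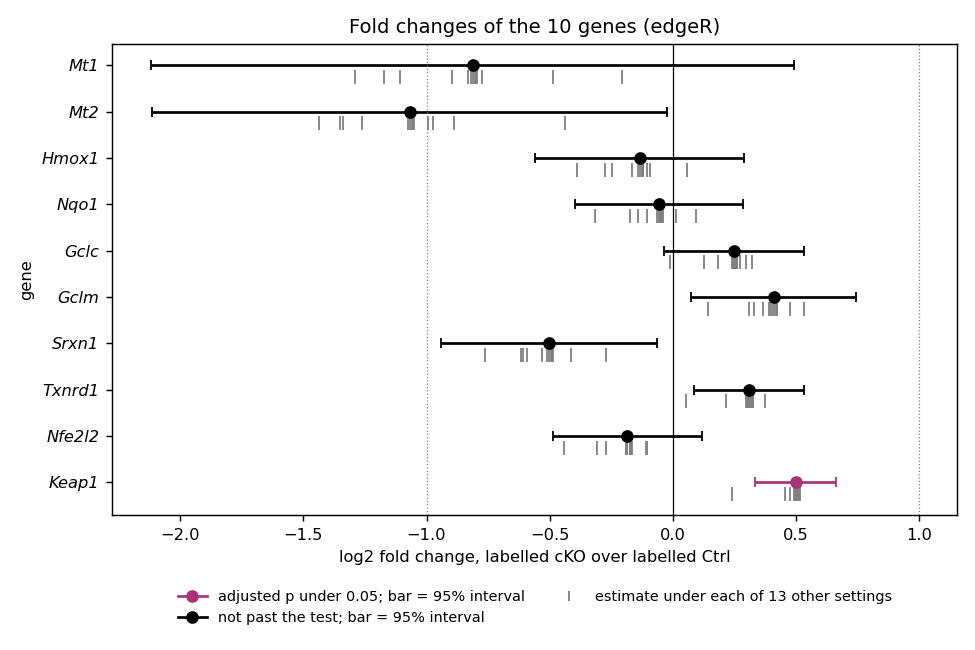
Log2 fold change (labelled cKO over labelled Ctrl) of the 10 genes with 95% intervals from edgeR; grey ticks are the estimates under 13 other settings and dotted lines mark 2-fold. Keap1, at 0.50, is the gene past an adjusted p of 0.05, and the intervals of Mt1 and Mt2 reach below -2.1.

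Across 8 lists of related genes, glucocorticoid genes apart, 124 genes were tested and 35 passed (28.2%, beside 24.4% of all genes), 14 higher in the cKO-labelled libraries and 21 in the Ctrl-labelled ones. With total counts that split was 7 and 42, beside 673 and 4074 over all genes tested. The median log2 fold change of the list genes was -0.012 with TMM scaling. These lists were chosen with earlier results of these data known. Genes of glutathione synthesis and use divided, with 4 of 35 higher in the cKO-labelled libraries and 5 in the Ctrl-labelled ones. Gstp1 (0.47, standard error 0.07), Gstm5 (0.56, standard error 0.09) and Oplah (0.64, standard error 0.11), an enzyme that returns oxoproline to glutamate, were higher in the cKO-labelled libraries. Ggt5, which cleaves glutathione and leukotrienes (-0.78, standard error 0.10), the transferase Gstm7 (-2.32, standard error 0.37) and Gstz1 (-0.40, standard error 0.08) were higher in the Ctrl-labelled ones. These 6 genes were called in all 13 other settings, although with total counts Gstp1 was at 0.21, Gstm5 at 0.31, Oplah at 0.39 and Gstz1 at -0.65. Gstm7 had 13.6, 13.1 and 10.4 CPM against 2.43, 3.87 and 1.18 CPM, which is 4.98-fold. Reads of the glutathione transferase paralogs may be split between near-identical copies. The cystine importer Slc7a11 had 1 to 20 counts per library and was not tested.

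In the thioredoxin and peroxiredoxin list, 2 of 16 genes passed (12.5%). Msrb3, a methionine sulfoxide reductase, was higher in the cKO-labelled libraries (0.84, standard error 0.09, edgeR's adjusted p = 0.00222). Nxn, nucleoredoxin, was higher in the Ctrl-labelled ones, with 123, 119 and 118 CPM against 62.3, 63.9 and 63.2 CPM (-0.93, standard error 0.07, edgeR's adjusted p = 0.000665). Both were called in all 13 other settings. The genes Prdx1 (-0.093, standard error 0.08, and -0.35 with total counts, which passed) and Txn1 (0.08, standard error 0.06, and -0.18 with total counts) did not pass. Of 5 superoxide dismutase and catalase genes, the copper chaperone Ccs passed (0.38, standard error 0.10, edgeR's adjusted p = 0.0369), a call that held in 6 of the 13 other settings and was lost with total counts (0.13, adjusted p = 0.407), and Sod2 just missed (0.35, standard error 0.11, adjusted p = 0.0514) and passed in 3 of the 13 others.

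Of 19 genes of heme, iron and quinone detoxification, 2 were higher in each direction (21.1% called, beside 24.4% of all genes tested). The heme transporter Slc48a1 (47.2, 47.4 and 47.2 CPM labelled Ctrl, 61.8, 61.5 and 62.9 CPM labelled cKO) and the aldehyde dehydrogenase Aldh1a1 (0.98, standard error 0.20, edgeR's adjusted p = 0.0145) had higher levels in the cKO-labelled libraries. The epoxide hydrolase Ephx1 (52.1, 57.6 and 45.5 CPM against 28.5, 24.1 and 24.9 CPM, standard error of the log2 fold change 0.11, edgeR's adjusted p = 0.00273) and the ferritin light chain gene Ftl1 (-0.40, standard error 0.10, adjusted p = 0.0278), both NRF2 targets, were higher in the Ctrl-labelled ones. Slc48a1 was lost with total counts (0.14, adjusted p = 0.187), Aldh1a1 without cKO 3 (adjusted p = 0.0576), and Ftl1 in 5 of the 13 other settings. Of 9 genes that supply NADPH, Me1, malic enzyme, had 101, 130 and 178 CPM in the Ctrl-labelled libraries and 469, 377 and 394 CPM in the cKO-labelled ones. It was 3.03-fold higher in the latter (standard error of the log2 fold change 0.21, edgeR's adjusted p = 0.00394). Mitochondrial Idh2 (-1.42, standard error 0.33, edgeR's adjusted p = 0.0233) and Pgd of the pentose phosphate pathway (-0.40, standard error 0.10, adjusted p = 0.0276) had higher levels in the Ctrl-labelled ones. Idh2 had 1364, 1119 and 947 CPM in the Ctrl-labelled libraries and 404, 636 and 240 CPM in the cKO-labelled ones. The call of Idh2 was lost without Ctrl 1, Ctrl 2 or cKO 1, and that of Pgd in 5 of the 13 other settings.

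Among genes that produce oxidants, 6 of 11 were higher in the Ctrl-labelled libraries and 1 in the cKO-labelled ones, with a median of -0.77. Calls made up 63.6% of this list, beside 24.4% of all genes tested, of which 11.8% were higher in the Ctrl-labelled libraries. The phagocyte oxidase genes Cybb (-0.77, standard error 0.23, edgeR's adjusted p = 0.0465), Ncf1 (-1.08, standard error 0.15, adjusted p = 0.00505) and Rac2 (-0.89, standard error 0.26, adjusted p = 0.0463) were among the 6, all at a mean under 10 CPM. Of these, Ncf1 was called in all 13 other settings, Cybb in 8 and Rac2 in 6. The macrophage and leukocyte markers given above moved the same way (median log2 fold change -0.84), and their part in this list was not tested. Nox4, an oxidase not confined to phagocytes (-1.17, standard error 0.27, adjusted p = 0.0211), and Duox1 (-1.43, standard error 0.35, adjusted p = 0.0276) had higher levels in the Ctrl-labelled libraries as well, and were called in 8 and 9 of the 13 other settings. Monoamine oxidase Maob was higher in the cKO-labelled libraries (0.80, standard error 0.24, adjusted p = 0.0478), a call that held in 6 of the 13 other settings and was lost with total counts (0.55, adjusted p = 0.123).

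**Figure D5:**
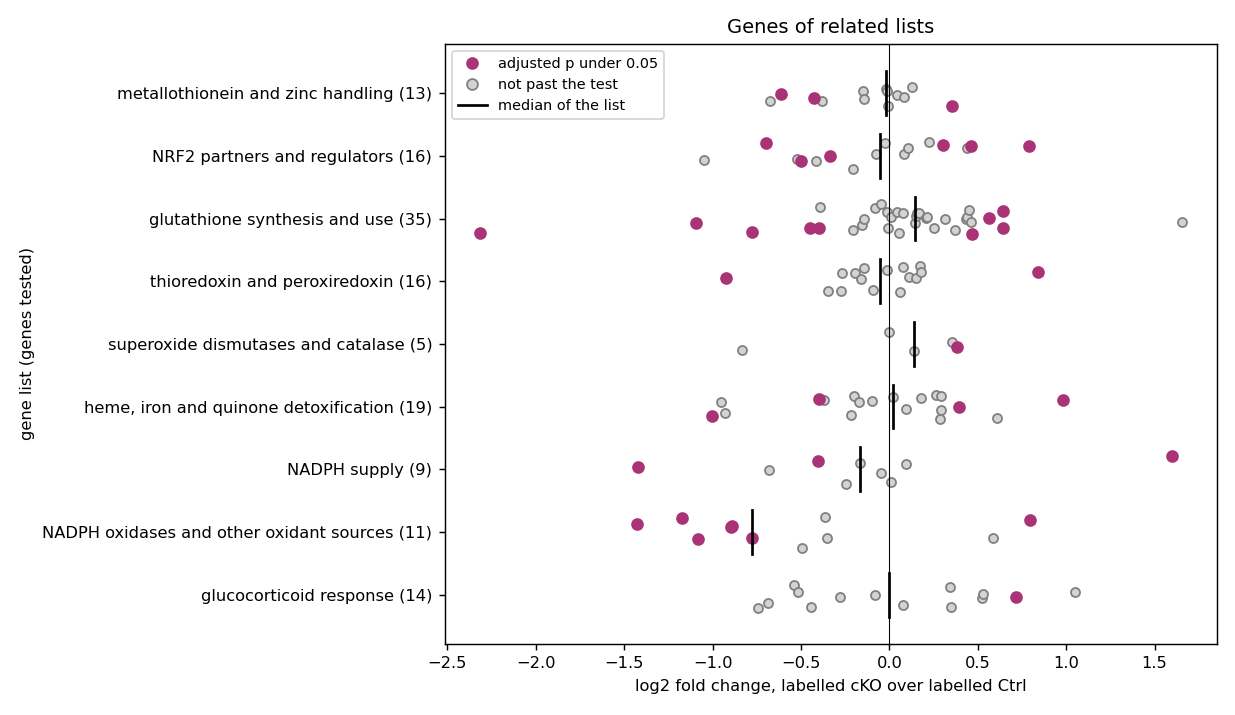
Log2 fold change (labelled cKO over labelled Ctrl) of each tested gene, by list, with the number tested in brackets; filled points have an adjusted p under 0.05 from edgeR and black lines are list medians. The lists divide about 0 (medians -0.17 to 0.14), except the oxidant sources at -0.77.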

How the data were processed

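RNA from GP muscle was sequenced as paired-end mRNA libraries, 1 library per mouse and 3 per labelled group. Per the submitters' processing notes, the authors used FastQC 0.11.8, Trimmomatic 0.39, HISAT2 2.1.0 (mm10) and featureCounts 1.6.2, and deposited whole-number counts per gene without normalization. The annotation and strand setting are not given in the sources used here. Replicates differed by far more than counting noise.

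The test was edgeR 4.0.16 in R 4.3.3 (TMM, filterByExpr, glmQLFit and glmQLFTest, Benjamini-Hochberg adjustment over 14180 genes, adjusted p under 0.05). Standard errors came from the F statistic. DESeq2 1.42.0 was run as an alternative, since the study used DESeq. Simulated data with known changes were used to check the fit. There edgeR recovered 73 of 100 genes changed 2-fold and 93 of 100 changed by a log2 of 2 (14044 genes tested). It also called 10 unchanged genes. DESeq2 recovered 82 and 95 of 100 and called 53 unchanged genes. The simulation changed far fewer genes than the 24.4% called in the data, equally up and down, so it does not check the scaling. Level order used GENCODE M21 transcripts. The members and lists were chosen with earlier results of these data known. Named are all members, up to 3 called genes per list and direction, and the 3 genes most like Mt1 and Hmox1. Other list genes (Glul and other uncalled ones, Cybb, Rac2 and Duox1) were named after their values were seen. The values of 1 list gene are not reported here.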

Additional observations from a re-analysis of the deposited data

How the results depend on the processing

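Keap1 kept its direction and its call in all 13 alternatives (normalization, filter, tool, block, robust fit and each library left out), with log2 fold changes from 0.24 to 0.52, and so did Net39 (3.95 to 4.31). The count of members past the test was 4 with total counts (Mt2, Srxn1, Nfe2l2 and Keap1, of which 1, Mt2, had a fold change over 2), beside 33.5% of all genes called and 8.32% with such a fold. It was 2 with DESeq2, 2 with the robust fit (24.1% of all genes) and 1 to 3 with a library left out (10.8% to 24.8%). With total counts, 5 members (Mt2, Nqo1, Srxn1, Nfe2l2 and Keap1) and 51.1% of all genes did not overlap between groups, whereas Txnrd1 did overlap. Estimates changed sign for Gclc with total counts (-0.0092), for Hmox1 without Ctrl 3 (0.059; range without a library -0.27 to 0.059) and for Nqo1 without Ctrl 3 or cKO 2 (0.094 and 0.012; range -0.17 to 0.094). Among named list genes, Sqstm1 (-0.17) and Txn1 (-0.18) with total counts, Fkbp5 without cKO 1 (-0.53; range -0.53 to 0.92) and Glul without Ctrl 1 or cKO 2 (0.0021 and 0.062; range -0.84 to 0.062) changed sign. Leaving out a library gave 17 to 37 called list genes (18 without Ctrl 1, 21 without Ctrl 2, 17 without cKO 1 or cKO 3, against 35) and 1560 to 3585 called genes in all, with 1575 (without Ctrl 1), 1820 (Ctrl 2), 1789 (cKO 1) and 1560 (cKO 3) against 3454. The causes were not tested. Mouse numbers did not pair the libraries (correlations of same-numbered deviations 0.084, -0.21 and -0.0020). With the mouse number as a replicate block, 3 members (Mt2, Srxn1 and Keap1), 22 list genes and 1899 genes (13.4%) passed, and the calls of Rbx1 (adjusted p = 0.071) and Slc30a9 (0.056) were among those lost. With 3 mice a group, intervals of Mt1 and Mt2 span over 2 log2 units, and no library of a group of 3 could be tested as lying apart.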
